A study of Homo sapiens with 60 samples.

Results

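The 8 genes described here are HLA-DRA, HLA-DRB1, HLA-DPA1, HLA-DPB1, HLA-DMA, HLA-DMB, CD74 and CIITA, the MHC class II chains, their chaperones and their transcriptional coactivator. They were listed by name and not by a cutoff on their values, though earlier results of these data were known. They are 8 of the 19712 genes in the deposited tables. Bulk RNA-seq was available for 60 cultures of 4 EGFR-mutant lung adenocarcinoma cell lines, PC9, HCC827, H1975 (NCI-H1975) and HCC2935, with 3 biological replicates in each of 5 arms per line. The comparisons ask how these genes stand in cells that survive osimertinib, an inhibitor of mutant EGFR, and what happens to them once the drug is removed.

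The DMSO and acute arms were parental cells kept without drug for 21 days and then given vehicle or 500 nM osimertinib for 24 h. The drug-tolerant persister (DTP) arm was harvested after 21 days in 500 nM osimertinib. The short washout arm was DTP cells given a further 24 h without drug, and the long washout arm was DTP cells kept without drug for 7 days in PC9, 3 days in H1975, 4 days in HCC827 and 10 days in HCC2935. The long washout therefore differed in length between lines, and the vehicle lasted 24 h whereas the DTP arm lasted 21 days. All cells grew as monolayers of a single line, with no immune cells added, so the libraries hold no tissue context, and p-values measure the spread between 3 cultures of a line.

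MHC class II molecules are pairs of an alpha and a beta chain that carry peptides from the endosomal pathway to the cell surface for CD4+ T cells. CD74, the invariant chain, fills the groove of the newly made pair, and HLA-DM then exchanges its remnant for peptide. CIITA does not bind DNA itself. It joins a complex of RFX, NF-Y and CREB proteins on the X and Y boxes of class II promoters, and interferon gamma is its classical inducer outside professional antigen-presenting cells, although lung epithelial cells can also make class II.

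RefSeq promoter windows on GRCh38.p14 were found for 6 of the 8 genes, and HLA-DRA and CIITA were not among them. The upstream letters of 4 genes are shown because their windows were the ones that held the X box letters, where the complex that CIITA joins is known to bind. Each line below is 140 bases that end just before the RefSeq start, read 5′ to 3′ on the minus strand of the gene. Capitals mark the X box letters (AG, 2 bases of any kind, AC, 3 bases of any kind, then TG) and, where they begin 25 to 40 bases after the start of the X box, the Y box letters ATTGG or their reverse complement CCAAT.
HLA-DRB1 (chr6:32589849-32589988): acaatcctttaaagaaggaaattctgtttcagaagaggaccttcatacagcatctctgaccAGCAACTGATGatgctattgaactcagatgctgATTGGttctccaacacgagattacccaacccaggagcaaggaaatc
HLA-DMA (chr6:32953098-32953237): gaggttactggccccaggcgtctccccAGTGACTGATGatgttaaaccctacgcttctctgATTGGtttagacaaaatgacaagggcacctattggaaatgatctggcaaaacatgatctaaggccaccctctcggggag
HLA-DMB (chr6:32941029-32941168): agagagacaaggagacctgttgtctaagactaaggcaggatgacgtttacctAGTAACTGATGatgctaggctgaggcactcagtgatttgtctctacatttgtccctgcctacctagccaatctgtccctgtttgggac
CD74 (chr5:150412911-150413050): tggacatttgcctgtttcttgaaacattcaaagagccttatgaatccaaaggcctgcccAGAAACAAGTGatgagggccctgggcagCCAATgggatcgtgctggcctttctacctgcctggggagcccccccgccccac

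In HLA-DRB1 the X box began 79 bases before the start and ATTGG followed 33 bases later. In HLA-DMA it began 113 bases before the start, with ATTGG 34 bases later. CD74 held its X box letters 81 bases before the start and CCAAT 28 bases later, whereas in HLA-DMB, whose X box lay 88 bases before the start, the nearest CCAAT began 66 bases later. The HLA-DMB and CD74 windows also held the X letters once on the other strand, which is left in lower case in HLA-DMB and lies outside the printed bases in CD74. Among 35116 promoter windows, searched on both strands, 12.5% held the X letters, 34.6% held ATTGG, 0.137% held the pair in the HLA-DRB1 orientation, and 0.276% held it with the Y letters on either strand. The HLA-DPA1 and HLA-DPB1 windows held no X letters. These matches are descriptions of letters, and binding was not measured.

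In the GENCODE 29 annotation of GRCh38, HLA-DRA (chr6:32439842-32445046), HLA-DRB1 (chr6:32578769-32589848), HLA-DMB (chr6:32934629-32941070), HLA-DMA (chr6:32948613-32969094), HLA-DPA1 (chr6:33064569-33080775) and HLA-DPB1 (chr6:33075926-33087201) lie together on chromosome 6. CD74 (chr5:150401637-150412929) and CIITA (chr16:10866222-10943021) lie apart from them. HLA-DPA1 and HLA-DPB1 overlap by 4850 bases on opposite strands, and since strand-specific counting is not given in the sources used here, reads from that overlap cannot be told apart. HLA-DRB1 shared 24.6% of its 31-base words with other transcripts, mainly HLA-DRB5, and HLA-DMB shared 28.8% and HLA-DMA 10.2% with the readthrough gene AL645941.2. CIITA shared 18.3%, mainly with AC133065.3, and overlaps DEXI by 13570 bases on the opposite strand, so the levels of these 4 genes are less certain than those of HLA-DRA and CD74, which shared none.

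Libraries held 34.7 to 47.1 M estimated counts (M, mega) in PC9, 17.7 to 25.1 M in HCC827, 38.7 to 49.1 M in H1975 and 18.6 to 25.6 M in HCC2935, so low members are measured less precisely in HCC827 and HCC2935. By correlation over all genes, 1 of 15 PC9 libraries, 6 of 15 in HCC827, 3 of 15 in H1975 and 1 of 15 in HCC2935 lay nearer to another arm than to their own. In PC9 this was long washout replicate 3, which correlated at 0.9916 with short washout and at 0.9734 with its own arm. In HCC827 it was every DTP and short washout library, and in H1975 every DTP library. Markers of professional antigen-presenting cells were near 0: MS4A1 (CD20) was at 0 in every H1975 library, and the means of CD79B, AIF1 and TYROBP did not pass 0.199, 0.0713 and 0.0728 TPM (length-scaled transcript abundance) in any group. The exception was CD79A, a B-cell receptor chain, at 4.71 TPM in H1975 DMSO, 9.67 TPM in acute and 0.112 TPM in DTP. The epithelial adhesion genes EPCAM and CDH1 fell in H1975 from 212 and 84.5 TPM in DMSO to 21.8 and 2.37 TPM in DTP. The keratin KRT8 was not called there (log2 fold change -0.18, edgeR adjusted p = 0.351). All 5 epithelial markers summed to a median of 2592 TPM in H1975 DMSO and 1873 TPM in DTP. The 8 alveolar type II markers summed to a median of 54.6 TPM in HCC827 DMSO, 144.5 TPM in acute and 39.2 TPM in DTP, and to 274.7, 464.3 and 72.2 TPM in HCC2935. From DMSO to DTP the sum went from 9.13 to 14.8 TPM in PC9 and from 12.9 to 24.8 TPM in H1975. Single markers went both ways in DTP against DMSO. In HCC827 and HCC2935 the log2 fold changes were 2.02 and 2.17 for ABCA3 (edgeR adjusted p = 3.84e-06 and 2.5e-06) and -1.57 and -3.64 for NAPSA (0.00287 and 6.18e-08). The part of these shifts in the results below was not tested.

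**Figure D1:**
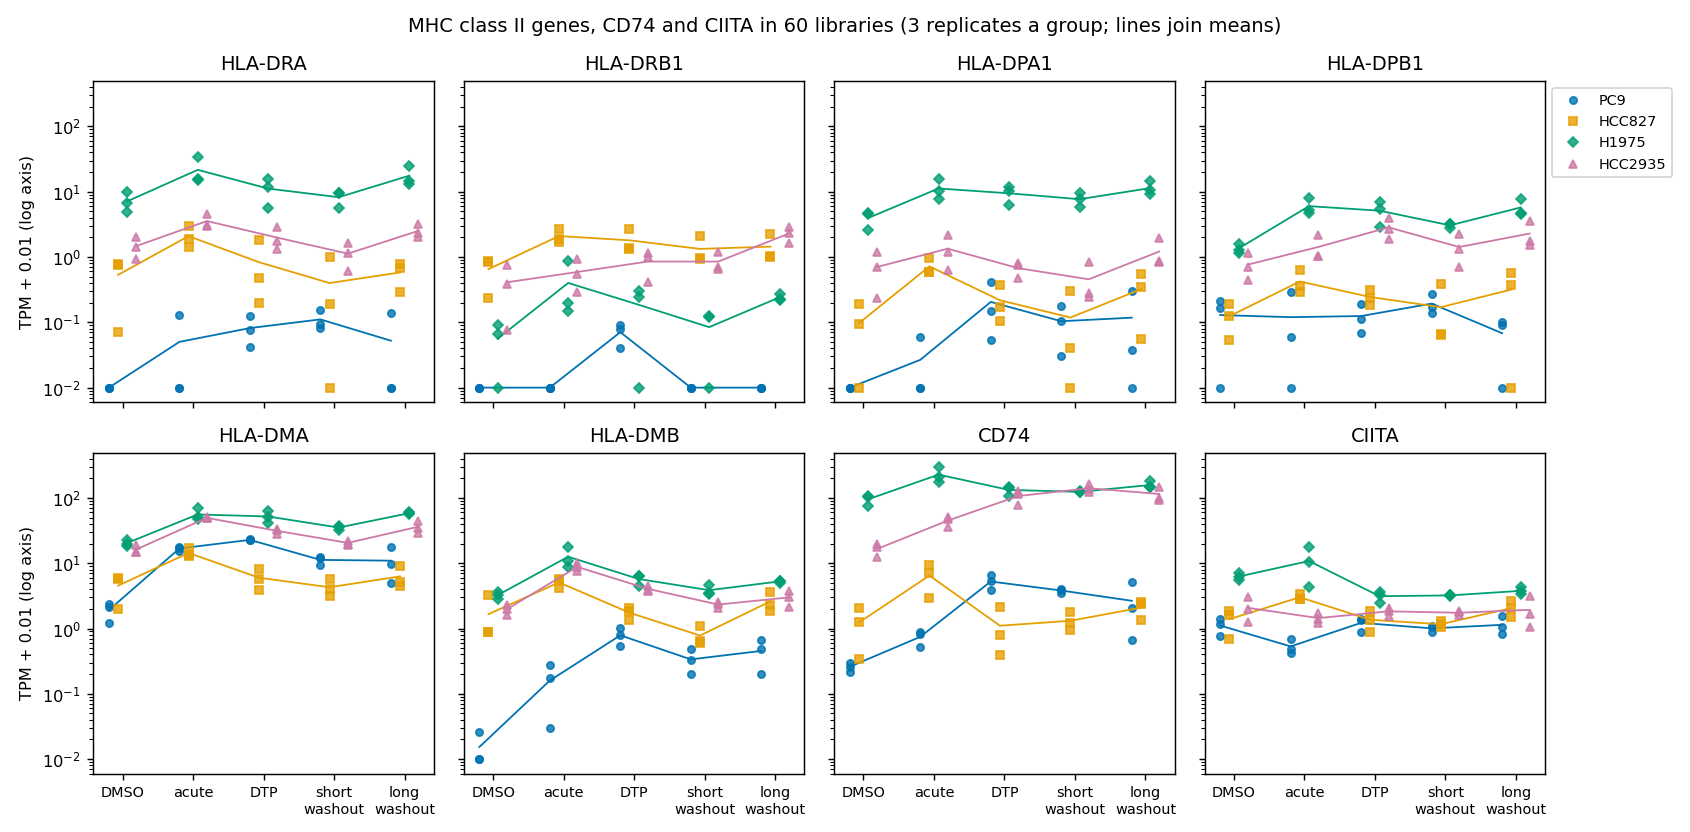
Level of each gene in all 60 libraries, as TPM + 0.01 on a log axis, against the 5 arms, with 1 point per replicate and lines through the group means of the 4 cell lines. H1975 lies highest for HLA-DRA, HLA-DPA1 and CIITA in DMSO, CD74 reaches a mean of 227 TPM in H1975 acute, and PC9 starts lowest for CD74 at 0.25 TPM.

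In DMSO, H1975 carried the most class II RNA, HCC2935 came next, HCC827 had little and PC9 had almost none. The 8 genes summed to 137 ± 23.2 TPM in H1975 (SD, n = 3), 40.2 ± 6.08 TPM in HCC2935, 10.1 ± 5.43 TPM in HCC827 and 3.38 ± 0.285 TPM in PC9. In edgeR's quasi-likelihood test over all 60 libraries, with Benjamini-Hochberg adjustment over all genes and an adjusted p under 0.05 as the call, 7 of the 8 genes differed between PC9 and H1975, 7 between PC9 and HCC2935, 7 between HCC827 and H1975, 6 between PC9 and HCC827, 6 between H1975 and HCC2935 and 4 between HCC827 and HCC2935. The shares of all tested genes called in those pairs were 63.1%, 67.0%, 56.5%, 62.3%, 65.3% and 64.3%, so a call between lines was common for any gene. Without replicate 3 of every group the PC9 against HCC827 count was 3, and without replicate 1 the HCC827 against HCC2935 count was 2.

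CD74 was the most abundant of the 8 in H1975. Its DMSO replicates were 105, 105 and 75.1 TPM in H1975, 17.6, 12.6 and 19.5 TPM in HCC2935, 1.27, 0.328 and 2.07 TPM in HCC827, and 0.291, 0.207 and 0.25 TPM in PC9. No range of these 4 lines overlapped another. The log2 difference was -8.29 for PC9 against H1975 (SE 0.50, edgeR adjusted p = 5.04e-19), 2.71 for H1975 against HCC2935 (adjusted p = 2.33e-09) and -2.12 for PC9 against HCC827 (adjusted p = 0.00534, or 0.186 without replicate 3 of every group).

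HLA-DRA, the alpha chain common to all DR molecules, was at 9.82, 6.66 and 4.88 TPM in H1975 DMSO and received no count in any PC9 DMSO library. Its mean in H1975 was at least 84.3-fold higher than the PC9 floor of 3 counts per library (0.0741 CPM, counts scaled to library size), and in HCC2935 and HCC827 at least 14.9-fold and 6.17-fold higher. HLA-DPA1, the DP alpha chain, was likewise at 0 in PC9 DMSO and at least 46.5-fold above that floor in H1975. HLA-DRB1, a DR beta chain, ran in another order than HLA-DRA: it was at 0.866, 0.229 and 0.833 TPM in HCC827 and at 0.0821, 0.0562 and 0 TPM in H1975, a log2 difference of 3.81 for HCC827 against H1975 (SE 0.90, edgeR adjusted p = 0.000415). HLA-DRB1 is highly polymorphic and the levels were estimated against 1 reference, so whether alleles of each line were counted alike was not tested.

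CIITA means ran in the same order, without the wide gaps of CD74. They were 6.23 ± 0.729 TPM in H1975 (SD, n = 3), 2.07 ± 0.86 TPM in HCC2935, 1.38 ± 0.617 TPM in HCC827 and 1.1 ± 0.317 TPM in PC9. The H1975 replicates lay above all others, whereas PC9, HCC827 and HCC2935 overlapped. PC9 differed from HCC2935 by a log2 value of -0.46 in CIITA (SE 0.34, edgeR adjusted p = 0.238) and by -5.58 in CD74 (SE 0.51, adjusted p = 1.96e-13).

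Osimertinib for 24 h raised HLA-DMA, HLA-DMB and CD74 in all 4 lines. With limma on log2(TPM + 1) the PC9 calls of HLA-DMB and CD74 were lost (adjusted p = 0.225 and 0.224). The DR and DP chains were called mostly in H1975. CIITA fell in PC9 and rose in HCC827, where 4 of 6 fits with 1 library left out lost the call. Its call in H1975 did not hold under most alternatives. In the edgeR quasi-likelihood test of each line's 15 libraries, all 8 genes were tested and all 8 were higher in H1975, where 51.6% of all tested genes were called and 27.8% were higher. In HCC2935 all 8 were tested and 4 were higher (47.1% called, 24.9% higher), and in HCC827 6 were tested and 5 were higher (39.0% called, 18.7% higher). In PC9 only 4 passed the filter on low counts, of which 3 were higher and 1 lower (66.2% called, 34.5% higher and 31.7% lower). The HCC827 count was 1 without acute replicate 2, 2 without DMSO replicate 2 and 3 without acute replicate 3. The genes that passed did so partly through the arms where they are high. In these bulk libraries more cells that make a gene and more RNA per cell cannot be told apart.

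HLA-DMA, the alpha chain of the peptide exchanger, rose in each line. In PC9 its replicates went from 1.22, 2.4 and 2.1 TPM in DMSO to 17.3, 17.5 and 15.6 TPM in acute. In HCC2935 they went from 19.1, 14.6 and 15.1 TPM to 48.4, 50.8 and 49.2 TPM. The groups did not overlap in any of the 4 lines. The log2 fold changes were 3.15 in PC9 (SE 0.34, edgeR adjusted p = 1.64e-06), 1.64 in HCC2935 (SE 0.16, adjusted p = 6.76e-07), 1.60 in HCC827 (SE 0.39, adjusted p = 0.00502) and 1.48 in H1975 (SE 0.16, adjusted p = 4.67e-06), and leaving out any library of the arms compared kept each call.

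HLA-DMB, its beta chain, rose in each line too. In HCC2935 it was at 1.61, 2.29 and 1.98 TPM in DMSO and at 10.1, 7.59 and 8.59 TPM in acute, a log2 fold change of 2.21 (SE 0.27, edgeR adjusted p = 7.8e-06). In H1975 it was at 3.63, 3.22 and 2.83 TPM against 8.87, 10.8 and 18 TPM, or 1.99 (SE 0.24, adjusted p = 1.18e-05). Neither pair of groups overlapped. In PC9 the gene was almost absent, with 1 rounded count in the 3 DMSO libraries and 17 in the 3 acute libraries, a ratio of 16.7 with a 95% counting interval of 2.61 to 696. The fitted change there was 3.69 (SE 1.12, adjusted p = 0.00959). In HCC827 the change was 1.53 (SE 0.48, adjusted p = 0.0196), and the adjusted p was 0.0665 to 0.081 without DMSO replicate 1 or 2 or acute replicate 2.

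CD74 rose in lines that began far apart. Its acute replicates were 177, 208 and 296 TPM in H1975, 51, 35.3 and 48.3 TPM in HCC2935, 2.96, 9.27 and 7.17 TPM in HCC827 and 0.874, 0.514 and 0.819 TPM in PC9. Each of these groups lay wholly above its own DMSO group. The log2 fold changes were 1.29 in H1975 (SE 0.19, edgeR adjusted p = 5.35e-05), 1.48 in HCC2935 (SE 0.22, adjusted p = 5.95e-05), 2.31 in HCC827 (SE 0.67, adjusted p = 0.0134) and 1.53 in PC9 (SE 0.58, adjusted p = 0.0293). The HCC827 call was lost without acute replicate 2 (adjusted p = 0.0613), and the PC9 call without any of DMSO replicates 1 to 3 or acute replicates 1 and 3 (0.0502 to 0.0895).

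Among the antigen-presenting chains, HLA-DRA in H1975 was at 15.1, 15.5 and 34.2 TPM in acute, above every DMSO replicate, with a log2 fold change of 1.63 (SE 0.42, edgeR adjusted p = 0.00486). In HCC2935 it went from 1.42, 0.936 and 2.03 TPM to 3.01, 3.07 and 4.54 TPM, a change of 1.31 (SE 0.42, adjusted p = 0.0176) that missed the threshold without DMSO replicate 2 or acute replicate 3 (0.0623 to 0.0752). In HCC827 the groups were also apart, at 0.765, 0.0608 and 0.743 TPM against 1.43, 2.95 and 1.84 TPM, but the change of 1.89 had a wide error (SE 1.00, adjusted p = 0.148). PC9 held HLA-DRA in 1 of its 3 acute libraries, at 0.121 TPM.

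The DP chains were called in H1975 alone, although their change did not pass the test of a difference between lines (adjusted p = 0.46 for HLA-DPA1 and 0.212 for HLA-DPB1, edgeR). That test took in PC9 and HCC827, where both chains lay too low for the test within the line. HLA-DPB1, the DP beta chain, went there from 1.58, 1.28 and 1.15 TPM to 5.15, 4.75 and 8.1 TPM, a log2 fold change of 2.19 (SE 0.35, edgeR adjusted p = 0.000115), and HLA-DPA1 from 4.7, 4.54 and 2.57 TPM to 10.1, 7.67 and 15.9 TPM, a change of 1.54 (SE 0.33, adjusted p = 0.00119). In HCC2935 the DMSO and acute ranges of both genes overlapped (adjusted p = 0.245 and 0.215 for HLA-DPA1 and HLA-DPB1). In HCC827 neither was tested, although HLA-DPA1 was at 0.0836, 0 and 0.178 TPM in DMSO and 0.97, 0.575 and 0.58 TPM in acute. HLA-DRB1 rose in HCC827 from 0.866, 0.229 and 0.833 TPM to 1.71, 1.88 and 2.67 TPM, a change of 1.62 (SE 0.55, adjusted p = 0.0301). That call was lost without DMSO replicate 2 or acute replicate 2 or 3 (0.0569 to 0.105). Its H1975 call (adjusted p = 0.0289) rested on levels under 1 TPM and was lost without DMSO replicate 2 or 3 or acute replicate 3 (0.0583 to 0.191).

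CIITA split the lines. In PC9 it went from 1.39, 0.76 and 1.15 TPM in DMSO to 0.411, 0.473 and 0.681 TPM in acute, with no overlap and a log2 fold change of -1.05 (SE 0.29, edgeR adjusted p = 0.00491). In HCC827 it went the other way, from 1.84, 0.678 and 1.61 TPM to 2.86, 2.81 and 3.33 TPM (1.05, SE 0.35, adjusted p = 0.0267), a call lost without DMSO replicate 2 or any acute replicate (0.0559 to 0.09). In H1975 the acute replicates were spread over 4.29, 10.5 and 17.6 TPM around DMSO values of 7, 5.56 and 6.12 TPM, so the groups overlapped. That change of 0.82 (SE 0.33, adjusted p = 0.0478) was lost without any DMSO replicate or acute replicate 2 or 3 (0.0604 to 0.405), and also with RLE size factors, no filter, only the 2 arms, a replicate block or either limma fit (0.0535 to 0.189). In HCC2935 the change was -0.48 (SE 0.34, adjusted p = 0.264). Thus in PC9 the 3 genes HLA-DMA, HLA-DMB and CD74 rose while CIITA fell.

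**Figure D2:**
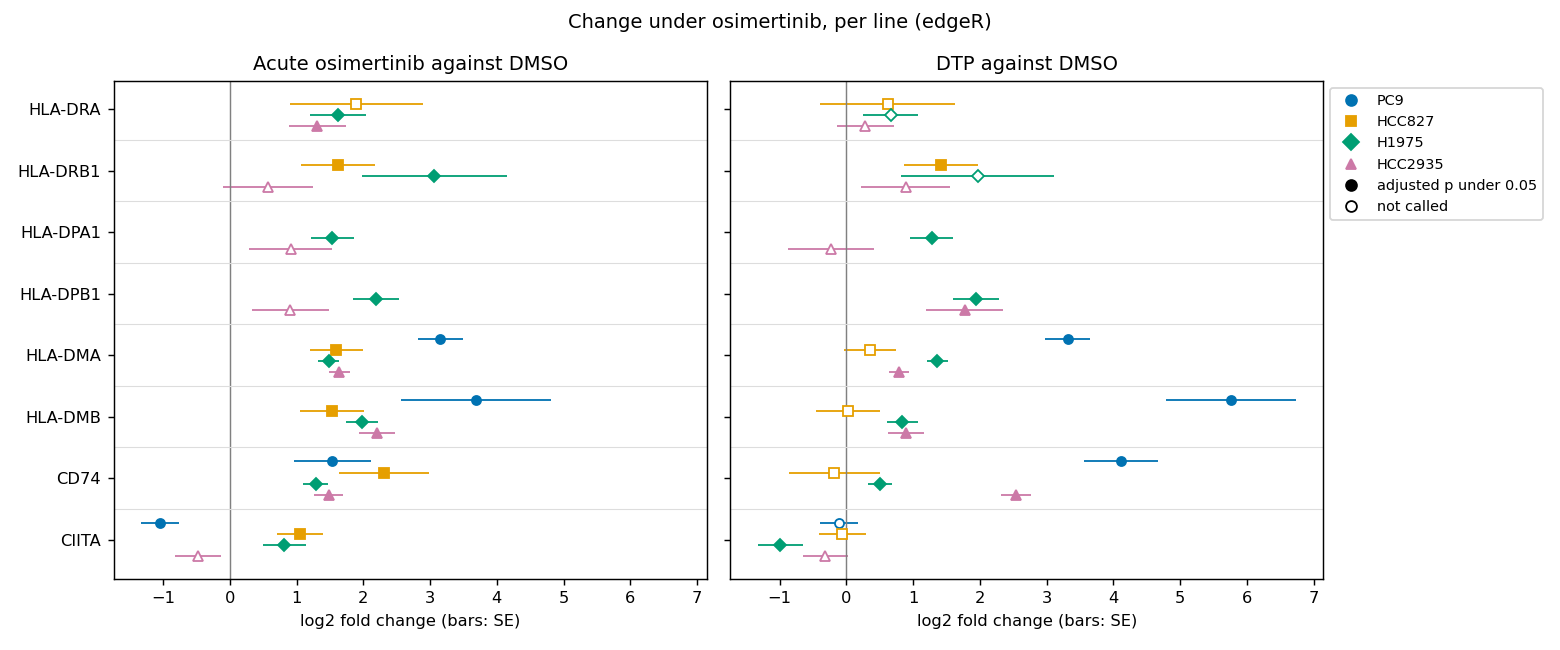
Log2 fold change of each tested gene (points, bars are the SE) for acute against DMSO and DTP against DMSO in the 4 lines, filled where the edgeR adjusted p is under 0.05. HLA-DMA, HLA-DMB and CD74 are filled and above 0 in all 4 lines under acute treatment, and CIITA lies at -1.05 in PC9 and 1.05 in HCC827; both panels share the DMSO libraries.

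After 21 days of drug the lines parted. PC9 and HCC2935 carried far more CD74 than in DMSO, H1975 kept raised DP and DM chains with lower CIITA, and in HCC827 a single gene was called. This comparison uses the same DMSO libraries as the acute one. In PC9 3 of the 4 tested genes were higher (69.2% of all tested genes called, 35.7% higher), in HCC2935 4 of 8 (52.8% called, 27.0% higher), in H1975 5 of 8 with 1 lower (51.7% called, 26.0% higher and 25.7% lower) and in HCC827 1 of 6 (43.4% called, 23.0% higher). Leaving out any 1 of the 6 HCC827 libraries took that count to 0.

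CD74 in HCC2935 was at 127, 78.1 and 115 TPM in DTP against 17.6, 12.6 and 19.5 TPM in DMSO, a log2 fold change of 2.55 (SE 0.23, edgeR adjusted p = 2.23e-07). In PC9 it was at 3.91, 5.28 and 6.5 TPM against 0.291, 0.207 and 0.25 TPM, a change of 4.11 (SE 0.56, adjusted p = 1.5e-05). In both lines every DTP library lay above every DMSO library, and also above every acute library. In H1975 CD74 was at 141, 107 and 149 TPM, a change of 0.50 (SE 0.18, adjusted p = 0.0338) that was lost without DMSO replicate 3 or DTP replicate 1 or 3 (0.0848 to 0.159). In HCC827 its DTP values of 0.377, 2.12 and 0.78 TPM overlapped the DMSO range (change -0.18, SE 0.68, adjusted p = 0.856).

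HLA-DMA in PC9 DTP was at 23.2, 22.5 and 22.5 TPM, 3.31 above DMSO on the log2 scale (SE 0.34, edgeR adjusted p = 1.29e-06). H1975 had 62.1, 41.6 and 51.8 TPM (1.36, SE 0.16, adjusted p = 9.54e-06) and HCC2935 had 28, 33.8 and 31.7 TPM (0.79, SE 0.15, adjusted p = 0.000486). In these 3 lines no DTP value fell within the DMSO range, whereas in HCC827, at 8.22, 5.78 and 3.93 TPM, the groups overlapped (adjusted p = 0.494). HLA-DMB in PC9 rose to 1.01, 0.789 and 0.531 TPM, or 77 rounded counts against 1, a ratio of 78.8 with a 95% counting interval of 13.7 to 3150. It was 0.84 higher in H1975 (SE 0.24, adjusted p = 0.00807) and 0.90 higher in HCC2935 (SE 0.27, adjusted p = 0.0106).

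The DP chains stayed high in H1975. HLA-DPB1 was at 6.93, 2.87 and 5.52 TPM and HLA-DPA1 at 11.7, 6.23 and 10.4 TPM, all above the DMSO replicates, with log2 fold changes of 1.95 (SE 0.34, edgeR adjusted p = 0.000299) and 1.28 (SE 0.32, adjusted p = 0.00418). The HLA-DPA1 call was lost in the edgeR fit of all 60 libraries (adjusted p = 0.0533). In HCC2935 only HLA-DPB1 of the pair was called, from 0.43, 1.14 and 0.691 TPM to 2.65, 1.86 and 3.98 TPM (1.77, SE 0.57, adjusted p = 0.016), and not without DMSO replicate 1 or DTP replicate 3 (0.066 to 0.069). HLA-DPA1 there was at 0.747, 0.462 and 0.787 TPM, within the DMSO range of 0.226 to 1.17 TPM (adjusted p = 0.789). In PC9 HLA-DPA1, at 0 in all DMSO libraries, was at 0.402, 0.0432 and 0.141 TPM in DTP, at least 2.17-fold above the floor of 3 counts per library.

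HLA-DRA was not called in DTP against DMSO in any line in which it was tested. Its DTP replicates were 15.9, 5.54 and 12 TPM in H1975 and 2.84, 1.33 and 1.74 TPM in HCC2935, both overlapping DMSO (edgeR adjusted p = 0.2 and 0.603). PC9 held it in all 3 DTP libraries, at 0.0662, 0.0322 and 0.116 TPM, and HLA-DRB1 at 0.0694, 0.0303 and 0.0823 TPM, a few counts each and not tested in the fit of that line. HLA-DRB1 was the only gene of the 8 called in HCC827, at 2.69, 1.37 and 1.31 TPM against 0.866, 0.229 and 0.833 TPM (1.42, SE 0.55, adjusted p = 0.0498, or 0.0558 to 0.196 with any 1 of the 6 libraries left out).

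CIITA was not called higher in DTP than in DMSO in any line. In H1975 it was at 3.63, 3.27 and 2.45 TPM, below every DMSO and acute replicate, with a log2 fold change of -0.99 against DMSO (SE 0.33, edgeR adjusted p = 0.0216, or 0.0632 to 0.0807 without DMSO replicate 1 or DTP replicate 3). The B-cell gene CD79A moved the same way there, with a change of -5.28 (adjusted p = 3.72e-05). Of 4 myeloid and dendritic genes tested there, 1 was lower (PTPRC, -1.51, adjusted p = 0.00166) and 1 was higher (CD14, at 2.84 TPM against 1.01 TPM, adjusted p = 0.00409). The part of these genes in the CIITA value was not tested. In PC9 CIITA was back at 1.34, 0.887 and 1.4 TPM, overlapping the DMSO range (-0.11, SE 0.28, adjusted p = 0.737), while CD74, HLA-DMA and HLA-DMB were at their highest mean TPM of the 5 arms.

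Set directly against acute treatment, DTP cells differed in both directions. CD74 was higher in PC9 DTP by 2.58 on the log2 scale (SE 0.50, edgeR adjusted p = 0.00118) and in HCC2935 by 1.07 (SE 0.21, adjusted p = 0.000736), and lower in HCC827 by -2.49 (SE 0.68, adjusted p = 0.0129) and in H1975 by -0.79 (SE 0.18, adjusted p = 0.00442). The 2 groups of replicates were apart in each line. In all, 3 of 4 tested genes were higher in PC9 (33.9% of all tested genes called, 16.1% higher), 4 of 6 were lower in HCC827 (29.4% called, 11.5% lower), 3 of 8 were lower in H1975 (37.2% called, 18.9% lower), and in HCC2935 1 of 8 was higher and 2 were lower (44.7% called, 22.8% higher and 21.9% lower). The HCC827 count was 0 without acute replicate 2 or DTP replicate 3 and 2 without acute replicate 1, acute replicate 3 or DTP replicate 2, and the adjusted p of CD74 was 0.0542 to 0.0544 without acute replicate 2 or DTP replicate 3. The PC9 count was 1 without acute replicate 2 or DTP replicate 1.

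HLA-DMB was lower in DTP than in acute cells in H1975 (-1.15, SE 0.23, edgeR adjusted p = 0.0017), HCC2935 (-1.31, SE 0.26, adjusted p = 0.000645) and HCC827 (-1.51, SE 0.48, adjusted p = 0.0273), and higher in PC9 (2.08, SE 0.66, adjusted p = 0.0249). HLA-DMA fell in HCC2935 by 0.85 and in HCC827 by 1.24 (adjusted p = 0.000274 and 0.0261). CIITA fell in H1975 by 1.80 (SE 0.34, adjusted p = 0.00101) and in HCC827 by 1.11 (SE 0.35, adjusted p = 0.0263), and rose in PC9 by 0.94 (SE 0.29, adjusted p = 0.0205). The PC9 calls of HLA-DMB and CIITA were each lost without any of 4 of the 6 libraries (0.0527 to 0.082 without acute replicate 2 or 3 or DTP replicate 1 or 2, and 0.0631 to 0.0828 without acute replicate 1 or 2 or DTP replicate 1 or 3). The HCC827 calls were lost for HLA-DMA without acute replicate 1 or 2 or DTP replicate 2 or 3 (0.0546 to 0.107), for HLA-DMB without acute replicate 2 or 3 or DTP replicate 2 or 3 (0.0605 to 0.0944) and for CIITA without any acute replicate or DTP replicate 1 or 3 (0.0523 to 0.111).

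After 24 h without drug few genes of the 8 passed the test against DTP. Only HLA-DMA in HCC2935 was called, from 28, 33.8 and 31.7 TPM to 22.1, 19.3 and 19.9 TPM, without overlap (-0.60, SE 0.15, edgeR adjusted p = 0.0444). That 1 call of 8 stood beside 3.14% of all tested genes called and 0.816% lower, and it was lost with any 1 of the 6 libraries left out (0.0512 to 0.199). In PC9 HLA-DMA was at 12.3, 9.25 and 12.2 TPM after 23.2, 22.5 and 22.5 TPM in DTP (-1.01, SE 0.30, adjusted p = 0.0611), and in H1975 at 36.2, 32.4 and 36.7 TPM after 62.1, 41.6 and 51.8 TPM (-0.60, SE 0.16, adjusted p = 0.112). In both lines every short washout value was below every DTP value. In edgeR none of the tested members was called in PC9, H1975 or HCC827, where 5.92%, 0.0585% and 0% of all tested genes were, and 3739, 2110 and 291 genes had an unadjusted p under 0.05. DESeq2 called 1 member in PC9, 1 in H1975 and 0 in HCC827, and edgeR called 1 in H1975 without DTP replicate 2.

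CD74 was not called lower after either washout. In HCC2935 it was at 135, 163 and 123 TPM after short washout and at 101, 149 and 94.4 TPM after long washout, both overlapping DTP (edgeR adjusted p = 0.337 and 0.692). In H1975 it was at 122, 122 and 126 TPM and then 145, 145 and 183 TPM. In PC9 it was at 3.84, 3.54 and 4.03 TPM after short washout, within or just below the DTP range.

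The long washout comparison in PC9 depended on 1 library. HLA-DMA was at 9.85, 4.97 and 17.9 TPM, all below DTP, with a log2 fold change of -1.01 (SE 0.30, edgeR adjusted p = 0.0176), the only 1 of 4 tested genes called there, where 37.2% of all tested genes were and 16.8% were lower. CD74 was at 2.06, 0.669 and 5.21 TPM, of which the last lay inside the DTP range (-0.96, SE 0.46, adjusted p = 0.113). Replicate 3, the high one of both genes, is the library that correlated better with short washout than with its own arm. Without it the change of HLA-DMA was -1.48 (adjusted p = 0.00024) and that of CD74 was -1.82 (adjusted p = 0.00136), so 2 were called, whereas without replicate 1 or 2 none was (0.0592 to 0.0611 for HLA-DMA). In HCC827, H1975 and HCC2935 edgeR called none of the tested members between long washout and DTP, where 0%, 0.0065% and 11.8% of all tested genes were called, and 502, 615 and 3963 genes had an unadjusted p under 0.05. DESeq2 called none of the members in these 3 lines, and limma on log2(TPM + 1) called 1 in HCC2935.

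**Figure D3:**
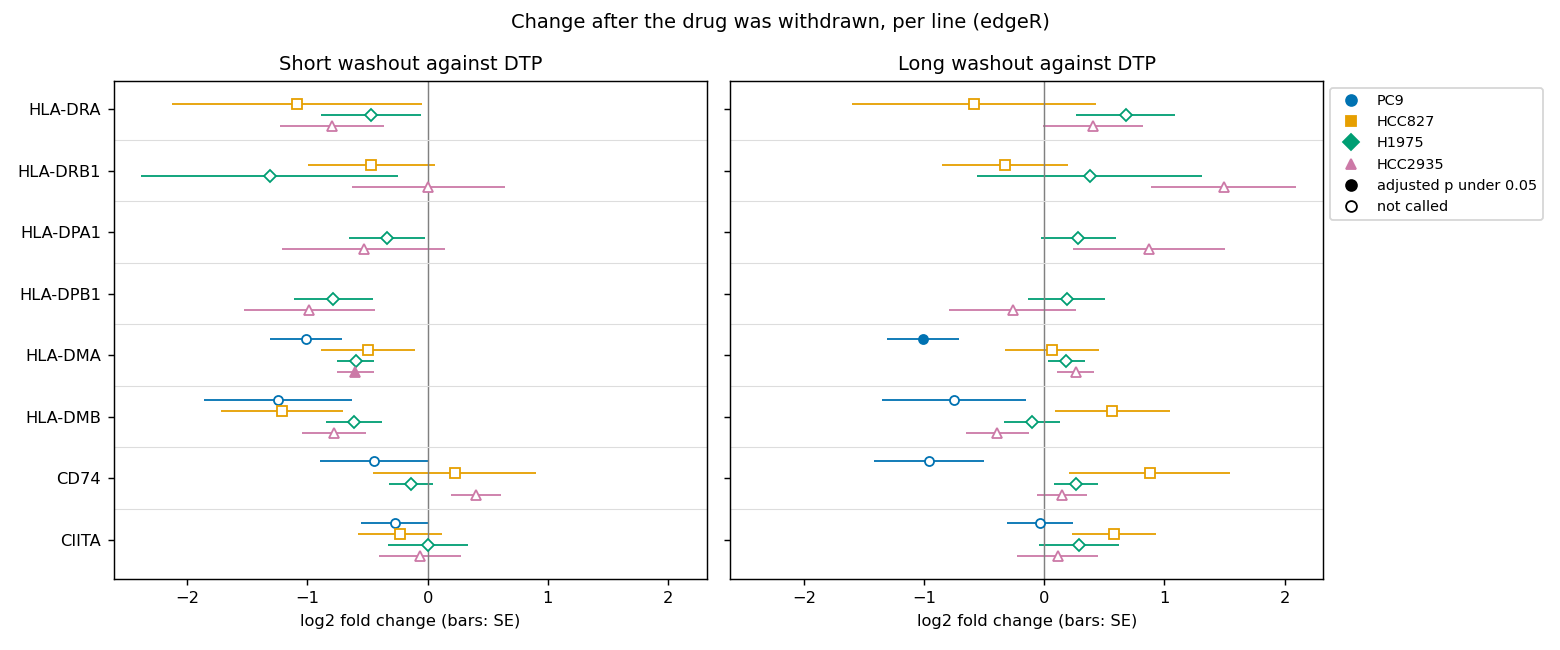
Log2 fold change of each tested gene (points, bars are the SE) for short and long washout against DTP in the 4 lines, filled where the edgeR adjusted p is under 0.05. HLA-DMA lies below 0 in all 4 lines after short washout and is filled in HCC2935 only, at -0.60, and after long washout it is filled in PC9 only, at -1.01.

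Against DMSO, long washout cells of 3 of the 4 lines still held more RNA of some of the 8 genes. In PC9 these were HLA-DMA, HLA-DMB and CD74. The PC9 means of HLA-DRA, HLA-DRB1, HLA-DPA1 and HLA-DPB1 after long washout were 0.0423, 0, 0.108 and 0.0581 TPM. In H1975 6 of 8 tested genes were higher (53.3% of all tested genes called, 27.3% higher), in HCC2935 4 of 8 (43.3% called, 22.5% higher), in PC9 3 of 4 (44.9% called, 23.4% higher) and in HCC827 none of 6 (42.0% called, 7276 genes with an unadjusted p under 0.05) by edgeR or DESeq2, and 1 by edgeR without DMSO replicate 3. CD74 in HCC2935 was 2.70 higher on the log2 scale (SE 0.23, edgeR adjusted p = 1.96e-07) and in PC9 3.15 higher (SE 0.56, adjusted p = 0.000497, or 2.26 with an adjusted p of 0.00111 without long washout replicate 3). HLA-DMA in H1975, at 55.8, 58.6 and 60.6 TPM, was 1.55 higher (SE 0.16, adjusted p = 3.21e-06). In each of these 3 cases no long washout value fell within the DMSO range.

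HLA-DRB1 in HCC2935 was highest after long washout. Its replicates were 0.383, 0.0656 and 0.751 TPM in DMSO, 0.398, 1.14 and 0.987 TPM in DTP and 2.91, 1.63 and 2.29 TPM after long washout. The long washout values lay above all others of the line, 2.38 above DMSO on the log2 scale (SE 0.64, edgeR adjusted p = 0.00701) and 1.49 above DTP (SE 0.60, adjusted p = 0.123). HLA-DRA in H1975, at 13.2, 14.8 and 24.6 TPM, was 1.34 above DMSO (SE 0.42, adjusted p = 0.0141), a call lost without DMSO replicate 3 or long washout replicate 3 (0.0655 to 0.0783). CIITA in H1975 stayed below DMSO at 3.36, 3.68 and 4.25 TPM (-0.70, SE 0.33, adjusted p = 0.0885).

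The difference between lines was tested itself, with an edgeR quasi-likelihood F-test of the change over the 4 lines. For acute against DMSO 2 of 8 genes differed between lines, HLA-DMA (adjusted p = 0.00154) and CIITA (adjusted p = 0.000645), beside 41.4% of all tested genes. For DTP against DMSO 4 of 8 differed, HLA-DMA (adjusted p = 2.08e-07), CD74 (1.33e-06), HLA-DMB (5.8e-06) and HLA-DPA1 (0.045), beside 63.9%. The HLA-DPA1 test took in PC9 and HCC827, where the gene lay too low for the test within the line. For long washout against DTP only HLA-DMA differed (adjusted p = 0.0366), beside 15.2%. CD74 did not pass this test in the acute comparison (adjusted p = 0.419). Without replicate 1 of every group HLA-DMA was lost from the acute test (adjusted p = 0.21), HLA-DPA1 was lost from the DTP test without replicate 1 or 3 (0.0926 to 0.508), and the long washout call was lost without replicate 1 or 2 (0.215 to 0.378).

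The make-up of the class II RNA shifted as well. CD74 made 41.2% of the summed group mean TPM of the 8 genes in HCC2935 DMSO, 40.3% in acute, 71.1% in DTP and 83.2% after short washout. In H1975 it made 69.2% in DMSO and 60.5% in DTP, and in PC9 7.38% and 17.2%. The sum itself went in HCC2935 from 40.2 ± 6.08 TPM in DMSO (SD, n = 3) to 150 ± 24.6 TPM in DTP, in PC9 from 3.38 ± 0.285 to 30.4 ± 0.883 TPM, in H1975 from 137 ± 23.2 to 219 ± 40 TPM, and in HCC827 from 10.1 ± 5.43 to 13.2 ± 2.94 TPM. In HCC827 the acute sum was 34.2 ± 6.5 TPM.

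**Figure D4:**
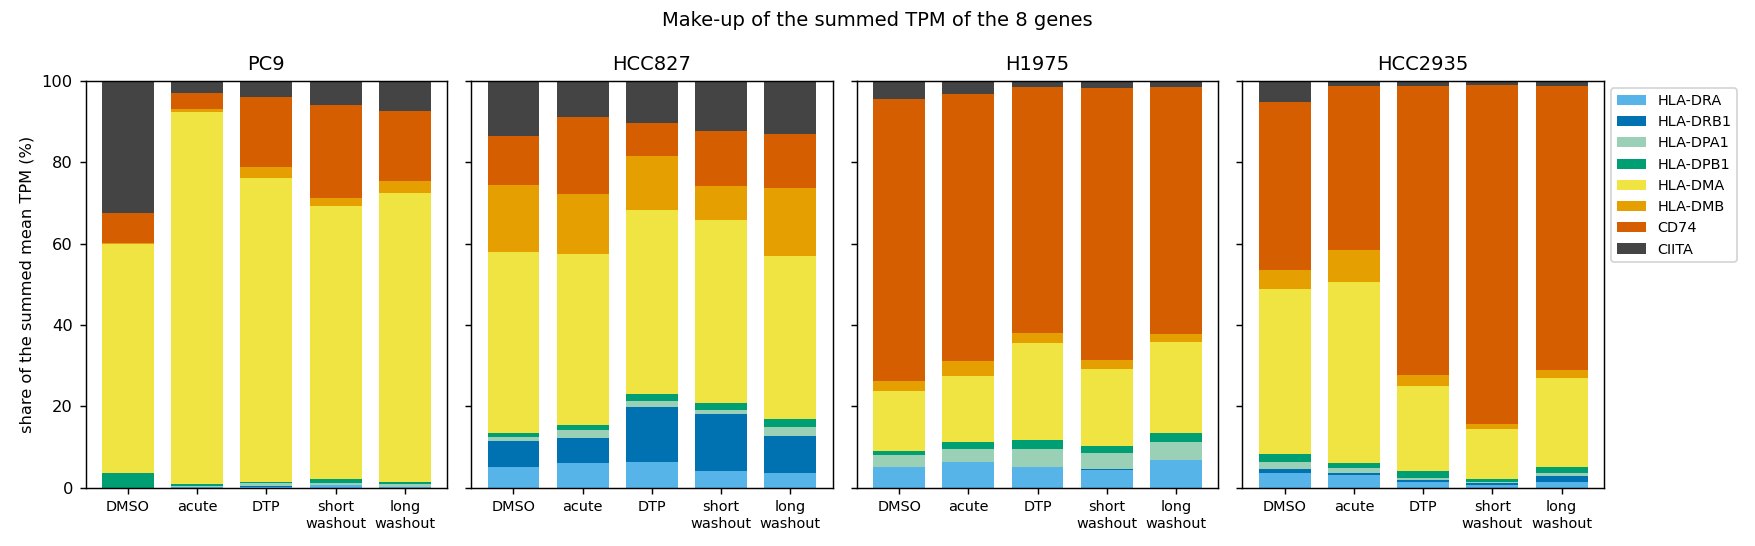
Share of each gene in the summed group mean TPM of the 8 genes (stacked bars, percent), by arm in each line. CD74 takes 41.2% in HCC2935 DMSO and 83.2% after short washout, whereas HLA-DMA takes most of the PC9 sum in all 5 arms.

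Genes of the proteins that CIITA works with moved in both directions. The counts of these and the next gene lists are descriptions, to be read beside the shares of all tested genes called in either direction, 66.2%, 39.0%, 51.6% and 47.1% in acute and 69.2%, 43.4%, 51.7% and 52.8% in DTP (PC9, HCC827, H1975 and HCC2935). In the same order 34.5%, 18.7%, 27.8% and 24.9% of all tested genes were higher in acute. In DTP 35.7%, 23.0%, 26.0% and 27.0% were higher. The rest of the genes called were lower. Of the 7 promoter complex genes tested in each line (RFX5, RFXAP, RFXANK, NFYA, NFYB, NFYC and CREB1), 3 were higher and 2 lower in PC9 under acute treatment, and 2 were higher and none lower in each of the other lines by edgeR. The list medians of log2 fold change were 0.13, 0.19, 0.02 and 0.13 in PC9, HCC827, H1975 and HCC2935, beside 0.07, 0.02, 0.10 and 0.07 over all tested genes. RFX5, a DNA-binding subunit of the RFX complex, was among those higher in all 4 lines, with acute changes of 1.66, 0.42, 0.91 and 1.23 (edgeR adjusted p = 5.91e-08, 0.0337, 1.01e-05 and 0.000127). In DTP RFX5 was higher in PC9 (0.81), H1975 (0.86) and HCC2935 (0.94), and the highest of the list in H1975 was NFYB (0.98). Each line also had a gene called lower in DTP. The lowest were CREB1 in PC9 (-0.48) and HCC827 (-0.55), NFYC in H1975 (-0.41) and NFYA in HCC2935 (-0.68), with edgeR adjusted p = 0.000625, 0.00896, 0.00154 and 7.65e-05. Of 6 regulators that repress CIITA or its promoters, 4 were lower and 1 higher in DTP in PC9, and 4 were lower in HCC2935, 3 in HCC827 and 2 in H1975, with list medians from -0.42 to -0.32. EZH2, a histone methyltransferase, was lower in DTP in all 4 lines, from -1.80 in HCC2935 to -0.95 in PC9. The 1 higher in PC9 DTP was PRDM1 (2.23, edgeR adjusted p = 1.44e-05).

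Of the 11 class II processing genes, most of them cathepsins, 8 were higher and 2 lower in acute PC9, 5 and 1 in HCC827, 7 and 0 in H1975 and 6 and 0 in HCC2935, with list medians of 1.02, 0.44, 0.62 and 0.51. Cathepsin S (CTSS), which trims the invariant chain, rose in acute cells of all 4 lines, by 4.05, 1.80, 2.03 and 0.95 on the log2 scale (edgeR adjusted p = 3.57e-06, 3e-05, 0.000249 and 8.26e-05). In DTP it was still higher in PC9 (3.58, adjusted p = 1.12e-05) but lower in H1975 (-2.55, adjusted p = 7.54e-05) and HCC2935 (-0.50, adjusted p = 0.00917), the line with the largest rise of CD74 after PC9. Cathepsin H (CTSH) rose in DTP by 2.88 in PC9 and 2.39 in HCC827, and also in HCC2935 (edgeR adjusted p = 4.68e-06).

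The list medians of interferon gamma signalling genes and their targets were highest in PC9. Of 9 signalling genes 6 were higher and none lower there under acute treatment and again in DTP, and IRF1, which activates an inducible CIITA promoter, was 2.03 higher in DTP (edgeR adjusted p = 2.25e-06). In H1975 DTP 2 signalling genes were higher and 2 lower, and IRF1 was not called (-0.49, adjusted p = 0.0598). The receptor chain IFNGR1 was higher in DTP in all 4 lines, by 1.30, 0.76, 1.64 and 0.42. Of the inducible genes tested, 8 of 10 were higher and 1 lower in PC9 DTP (list median 2.44), 5 of 11 in HCC827 (0.82), 5 of 9 in H1975 (0.32) and 2 of 11 with 2 lower in HCC2935 (0.30). The interferon-inducible GTPase GBP2 was 2.84 higher in H1975 DTP (adjusted p = 3.44e-07), and the chemokine CXCL10 was 5.70 higher in PC9 DTP (SE 1.24, adjusted p = 0.00092) from a DMSO mean of 0.0207 TPM. Of 3 costimulatory or adhesion genes tested, ICAM1 was higher in DTP in all 4 lines, by 3.12, 0.52, 2.23 and 1.71, whereas the adhesion gene CD58 was lower in PC9 (-1.99, edgeR adjusted p = 2.23e-06) and HCC2935 (-0.48, adjusted p = 0.0149).

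Other class II genes gave a further contrast between lines. Of 7 in the tables, 2 were tested in PC9 and 3 in each other line. All 3 were higher in HCC2935 DTP, HLA-DQA1 (1.18, edgeR adjusted p = 0.0498), HLA-DOB (0.87, adjusted p = 0.0276) and HLA-DQB1. HLA-DQB1, named after its values were seen, was at 9.04 ± 1.7 TPM in HCC2935 DMSO (SD, n = 3) and 20.9 ± 3.81 TPM in DTP (1.06, SE 0.35, adjusted p = 0.0169), and its mean was under 1 TPM in the DMSO, acute and DTP arms of the other 3 lines. HLA-DOB, which with HLA-DOA restrains HLA-DM, was also higher in PC9 DTP, at 1.22 TPM against 0.315 TPM (1.70, adjusted p = 0.00498).

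Across the 60 libraries, with each line's mean removed, log2(CPM + 1) of HLA-DRA and HLA-DPA1 correlated at 0.769, HLA-DPA1 and HLA-DPB1 at 0.745 and HLA-DMA and HLA-DMB at 0.676. CIITA correlated with CD74 at 0.299, with HLA-DMA at 0.088 and with HLA-DPB1 at 0.0118. These values are descriptions over libraries that share arms and depth, and the second pair shares an overlap in the genome. The genes outside class II most like CD74 were UBD (0.832), an interferon-inducible ubiquitin-like protein, PDZK1IP1 (0.824), SULT1E1 (0.809), TSPAN8 (0.803) and EXT1 (0.8), of which UBD and SULT1E1 each fell to -0.166 within a single line. Those most like HLA-DRA included H2AC8 (0.777), PLEKHS1 (0.757), TPCN1 (0.693) and DNAI1 (0.693, from -0.0718 to 0.828 within single lines). Those most like CIITA were SERPINA5 (0.781), SERPINA3 (0.759), ABCA12 (0.723), FUT3 (0.692) and FAM3C (0.69), and within single lines they ran from 0.243 to 0.912, -0.486 to 0.955, -0.108 to 0.944, -0.0837 to 0.877 and -0.0135 to 0.796. Apart from SERPINA5, the likeness to CIITA was thus absent in at least 1 line.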

How the data were processed

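The 60 libraries were mRNA sequencing of cultured cells, read as paired ends of 150 bp, with 3 biological replicates per line and arm according to the labels. Gene-level estimated counts were deposited by the authors, 83.9% of them not whole numbers, beside TPM on a log2(TPM + 0.01) scale. HISAT2 2.1.0, Salmon 0.8.2 and hg38 are named in the submitters' processing notes without their roles. The stranded setting is not given in the sources used here. Total estimated counts ran from 17.7 to 49.1 M (mega) per library, and intervals from counts cover counting error only. The members and the gene lists were chosen with earlier results of these data known.

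Estimated counts were rounded and tested in edgeR 4.0.16 (R 4.3.3) with TMM scaling, filterByExpr and the quasi-likelihood F-test, with 1 fit per line over its 15 libraries and no covariate. P-values were adjusted by Benjamini-Hochberg over 14866 genes in PC9, 14665 in HCC827, 15379 in H1975 and 14946 in HCC2935, and a call was an adjusted p under 0.05. A fit of all 60 libraries (16583 genes) gave the tests between lines. Printed levels are deposited TPM with the 0.01 removed. The script was tested on simulated data. The 8 members were always named, with the highest and lowest gene of each list in DTP against DMSO and the 5 genes most like HLA-DRA, CD74 and CIITA, of which some results are not reported here. The alternatives were RLE size factors, leaving out the filter, a minimum of 10 counts in each library, only the 2 arms compared, all 60 libraries, DESeq2 1.42.0, limma 3.58.1 on log2 TPM and on log2(TPM + 1), an adjusted p under 0.01, a replicate block and each library left out. Same-numbered replicates deviated together, every correlation being over 0.1, only in HCC827 short washout against DTP (0.385 to 0.677), H1975 short washout against DTP (0.231 to 0.562) and HCC2935 acute against DMSO (0.107 to 0.332). Tables were made with Python 3.11.15.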

Additional observations from a re-analysis of the deposited data

Results flagged for a closer look

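The change of 7 member and comparison pairs differed between the 4 lines in the edgeR quasi-likelihood F-test with Benjamini-Hochberg adjustment. For acute treatment against DMSO these were HLA-DMA (adjusted p = 0.00154), with log2 fold changes from 1.48 in H1975 to 3.15 in PC9, and CIITA (adjusted p = 0.000645), with -1.05 in PC9 and 1.05 in HCC827. For DTP against DMSO they were HLA-DMA (adjusted p = 2.08e-07), from 0.36 in HCC827 to 3.31 in PC9, CD74 (adjusted p = 1.33e-06), from -0.18 in HCC827 to 4.11 in PC9, HLA-DMB (adjusted p = 5.8e-06), from 0.02 in HCC827 to 5.76 in PC9, and HLA-DPA1 (adjusted p = 0.045), with -0.23 in HCC2935 and 1.28 in H1975. For long washout against DTP it was HLA-DMA (adjusted p = 0.0366), with -1.01 in PC9 and 0.26 in HCC2935. The fold of HLA-DMB in PC9 rests on 1 DMSO count. The HLA-DPA1 test also took in PC9 and HCC827, where the gene lay too low for the test within the line. The lengths of the long washout differed between lines, which cannot be told apart from the lines.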

How the results depend on the processing

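Of 1486 alternative values of called members, 1333 kept their direction and call, 153 kept the direction only and 0 reversed. Of 1541 alternative values of uncalled members, 82 had the other sign and 31 were called. Of 495 alternative counts of members called, 64 moved by more than 1.5 times, and the cause was not tested. With at least 10 counts in every library, which tests fewer genes, the count was 2 in place of 4 for PC9 acute, 1 in place of 3 for PC9 DTP and for PC9 long washout against DMSO, 3 in place of 5 for HCC827 acute, 0 in place of 1 for HCC827 DTP, and 2 in place of 4 for HCC2935 long washout against DMSO. With an adjusted p under 0.01 it was 1 for PC9 DTP against acute, 0 for PC9 long washout against DTP, 1 for HCC827 acute, 0 for HCC827 DTP and for HCC827 DTP against acute, 2 for HCC2935 DTP, 0 for HCC2935 short washout, 0 for the difference between lines in long washout and 2 for HCC827 against HCC2935 in DMSO. In the fit of all 60 libraries it was 5 for PC9 DTP, 1 for PC9 short washout, 0 for HCC827 DTP, 3 in place of 6 for H1975 DTP and 0 for HCC2935 short washout. With only the 2 arms compared it was 1 for PC9 short washout, 0 for PC9 long washout against DTP and 0 for HCC827 DTP, where RLE size factors and no filter also gave 0. DESeq2 gave 1 for PC9 and 1 for H1975 short washout, and was not run for the differences between lines. Limma on log2(TPM + 1) gave 2 for PC9 acute, 2 for PC9 long washout against DTP and 1 for HCC2935 long washout against DTP, and limma on log2 TPM gave 2 for PC9 long washout against DTP and 3 for the difference between lines in long washout.

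With 1 library left out the count ran from 1 to 2 for PC9 DTP against acute, 0 to 2 for PC9 long washout against DTP, 1 to 5 for HCC827 acute, 0 to 0 for HCC827 DTP, 0 to 3 for HCC827 DTP against acute, 0 to 1 for HCC827 long washout against DMSO, 0 to 1 for H1975 short washout and 0 to 0 for HCC2935 short washout. With a replicate number left out it ran from 1 to 2 for the difference between lines in acute, 0 to 1 for that in long washout, 3 to 6 for PC9 against HCC827 and 2 to 4 for HCC827 against HCC2935. With a replicate block the count changed in H1975 acute (7 in place of 8), H1975 DTP against acute (4 in place of 3) and HCC827 against H1975 in DMSO (8 in place of 7), where the numbers were not shown to pair the samples, and stayed at 0, 0 and 4 in the 3 comparisons where they did. HLA-DRA, HLA-DRB1 and the DP chains in PC9, and the DP chains in HCC827, did not pass the low-count filter within their line. The fit of all 60 libraries tested all 8 genes, so its counts for those lines can include them.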
